A study of Rattus norvegicus with 24 samples.

Results

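Primary neurons cultured from the striatum of newborn rats were exposed to SKF, an agonist of the dopamine D1 receptor, for 24 h, and their RNA was compared with that of cultures given the solvent DMSO for the same time. The comparison comprised 4 libraries, 2 with SKF and 2 with DMSO, chosen by their sample titles from the 24 samples of the series, of which 23 were analysed here. Both groups were treated on day 7 in culture and received no bromodomain inhibitor. In the same experiment, numbered 3, 2 libraries had JQ1, an inhibitor of the BET family of acetyl-histone readers, and 2 had SKF plus JQ1. Experiments 1 and 2 each held 2 DMSO and 2 SKF libraries after 60 min, which are used below for the time comparison. The labels give no doses. They also do not say whether the 2 libraries of a group are separate cultures, and all p-values therefore reflect a library-to-library spread that may be technical.

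The D1 receptor couples to stimulatory G proteins and raises cyclic AMP, which activates protein kinase A and the transcription factor CREB. In the striatum it marks the projection neurons of the direct pathway, whereas those of the indirect pathway carry the D2 receptor. CREB first induces immediate early genes, a group of transcription factors and synaptic regulators transcribed within minutes, and later-acting genes follow.

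Aligned bases came to 8.31 and 14.9 gigabases in DMSO replicates 5 and 6 and to 7.00 and 10.1 gigabases in SKF replicates 5 and 6. Mitochondrial transcripts took 10.6 to 11.9% of the transcript bases in these 4 libraries. Markers of the labelled tissue were present: Ppp1r1b, which encodes the projection neuron phosphoprotein DARPP-32, lay between 69.5 and 81.5 FPKM (fragments per kilobase of transcript, scaled to library size), Drd1 between 12.9 and 13.9 and Drd2 between 28.2 and 32.9. Other cells were also represented. The summed FPKM was 686 to 854 for 18 astrocyte markers, 57.8 to 67.1 for 17 oligodendrocyte lineage markers and 49.5 to 131 for 19 microglia and myeloid markers. All 19 of the microglia and myeloid markers were above 0 in all 4 libraries.

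After 24 h of SKF, 209 of 13997 genes tested differed from DMSO, which is 1.49% of them. Of these 89 rose (0.636%) and 120 fell (0.857%). These 2 shares are the background for the counts of list members at 24 h given below. A gene is said to have risen or fallen where limma's adjusted p was under 0.05, and changes are on the scale of log2(FPKM + 0.5), which understates the change of low genes. Only 7 of the rises and 15 of the falls reached a doubling or a halving on that scale. The groups did not overlap for any of the 209 genes, against 37.9% of all genes tested. The median change over all genes tested was 0.00. Of the 89 rises, 36 belong to lists of hypoxia, glycolysis, Atf4, iron or tRNA synthetase genes, in part drawn up with these changes known, and of the 120 falls 12 belong to the list of microglia and myeloid markers. The count leaned on 2 libraries: 63 genes passed without SKF replicate 6 and 80 without DMSO replicate 5.

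**Figure D1:**
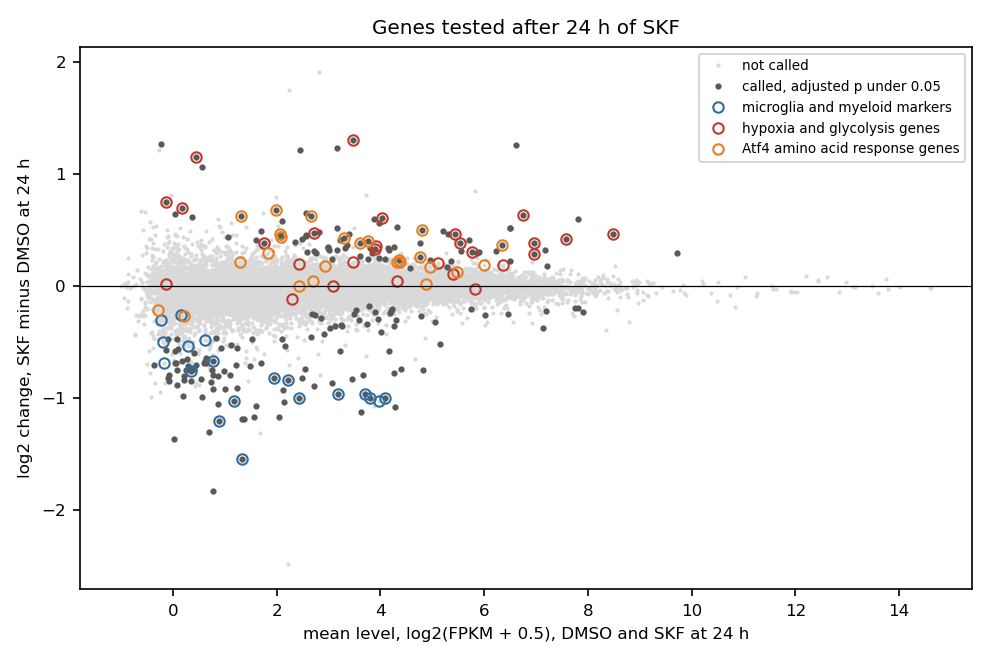
Each point is one of the 13997 genes tested; the horizontal axis gives its mean level over the 4 libraries as log2(FPKM + 0.5), and the vertical axis the log2 change with SKF at 24 h. Dark points mark the 209 genes called, and rings mark 3 gene lists: the microglia and myeloid markers all lie below 0, and most rings of the hypoxia and Atf4 lists lie above it.

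Vegfa, which encodes the vascular endothelial growth factor A, had the largest rise among genes with a mean of at least 1 FPKM. It read 5.90 and 5.80 FPKM in the DMSO libraries and 14.7 and 15.7 in the SKF libraries, a change of 1.31 ± 0.08 (SE, 95% interval 1.14 to 1.47, adjusted p = 8.09e-08 from limma). Both SKF libraries were more than 2-fold above both DMSO libraries. The gene lies at chromosome 9, 17340341 to 17355681 on the plus strand of Rnor_6.0. Tfrc, the transferrin receptor through which cells take up iron, was expressed at a much higher level and rose by nearly as much. Its libraries read 59.1 and 56.0 FPKM with DMSO and 137 and 139.6 with SKF, a change of 1.26 ± 0.09 (adjusted p = 4.5e-07). Vgf, a secreted neuropeptide precursor known to respond to neurotrophins and cyclic AMP, read 5.08 and 4.596 FPKM with DMSO and 11.96 and 12.1 with SKF. Its change was 1.23 ± 0.13 (adjusted p = 4.52e-05). AABR07051069.1, on an unplaced scaffold, read 2.93 and 2.65 FPKM with DMSO and 7.18 and 7.07 with SKF, in a near-constant ratio to Vgf, and the reads of both may be shared.

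Further down the order stood genes of lower level. Ankrd37, an ankyrin repeat gene induced by low oxygen, read 0.362 and 0.305 FPKM with DMSO and 1.02 and 1.75 with SKF (1.15 ± 0.17). Ak4, a mitochondrial adenylate kinase, read 0.367 and 0.534 with DMSO and 1.47 and 1.496 with SKF (1.07 ± 0.16). Nr4a3, an orphan nuclear receptor of the immediate early class, read 4.29 and 3.97 FPKM with DMSO and 6.86 and 6.69 with SKF (0.65 ± 0.10). The groups were apart for each of these, although the SKF libraries of Ankrd37 differed from each other more than those of the other genes. Of the 15 largest rises, RGD1562690 (0.60 ± 0.08) and AC098459.1 (0.61 ± 0.13) have no function given here. At 24 h the means of RGD1562690 were 11.19 FPKM with DMSO, 17.2 with SKF, 10.39 with JQ1 and 16.14 with SKF plus JQ1. Those of Ldha, described below, were 83.65, 130.4, 78.65 and 120.4 in the same order. The ratio was near-constant, and the reads of both may be shared. The calls of Vegfa, Tfrc, Vgf, AABR07051069.1, Ankrd37, Ak4, Nr4a3 and RGD1562690 held when each of the 4 libraries was left out in turn. AC098459.1 lost its call in all 4 omissions, with an adjusted p of up to 0.263.

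**Figure D2:**
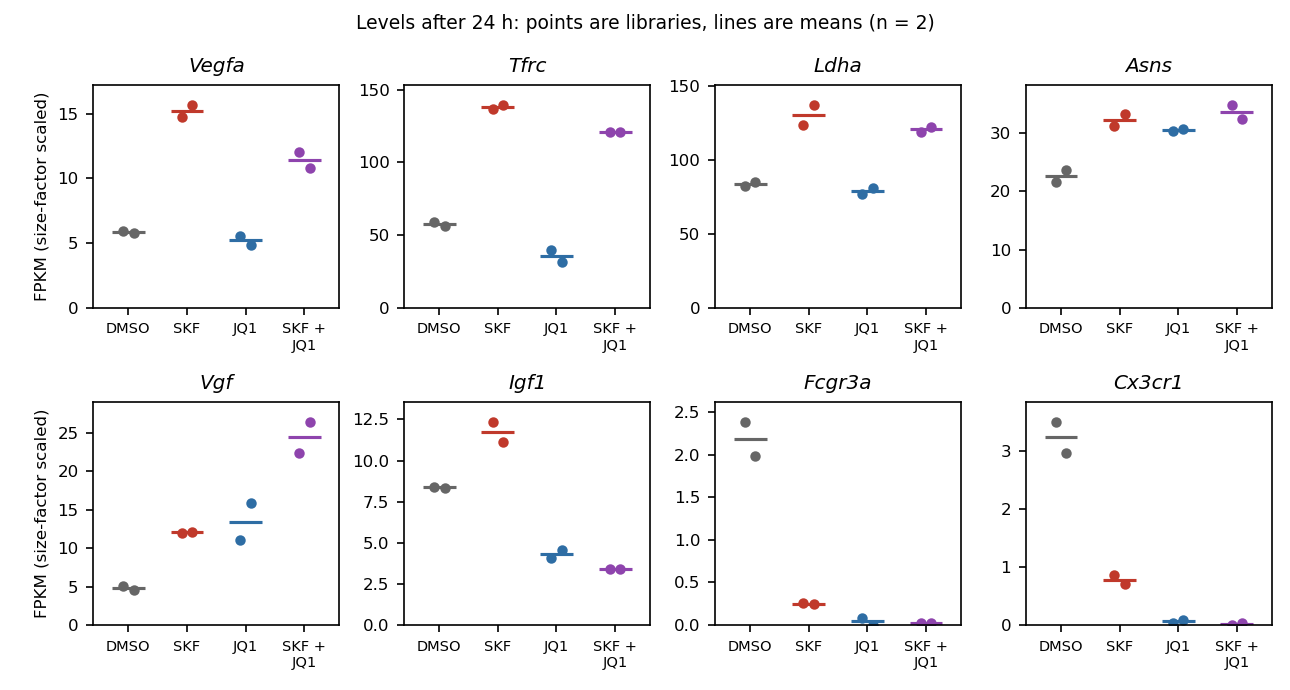
Size-factor scaled FPKM of 8 genes in the 8 libraries of the 24 h experiment, each point a library and each line the mean of 2. Vegfa, Tfrc and Ldha are high in both SKF groups, whereas Fcgr3a and Cx3cr1 are low with SKF and near 0 in both JQ1 groups.

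The sequences upstream of Tfrc, Vgf and Ankrd37 are shown because these are among the largest rises and because RefSeq promoter entries of 250 upstream bases (build GRCr8) hold short motifs of the pathways concerned. Capitals mark TGACGTCA, the cyclic AMP response element, and ACGTG, the core that hypoxia-inducible factors bind, each searched on both strands; a CACGTG holds the core on both strands and counts as 2 overlapping matches.
Tfrc, chr11:81690319-81690568, minus strand: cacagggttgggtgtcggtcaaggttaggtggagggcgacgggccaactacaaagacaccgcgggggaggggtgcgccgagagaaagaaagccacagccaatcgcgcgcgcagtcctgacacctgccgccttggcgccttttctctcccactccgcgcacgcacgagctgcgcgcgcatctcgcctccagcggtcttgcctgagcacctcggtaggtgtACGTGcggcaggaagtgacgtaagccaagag
Vgf, chr12:25277021-25277270, minus strand: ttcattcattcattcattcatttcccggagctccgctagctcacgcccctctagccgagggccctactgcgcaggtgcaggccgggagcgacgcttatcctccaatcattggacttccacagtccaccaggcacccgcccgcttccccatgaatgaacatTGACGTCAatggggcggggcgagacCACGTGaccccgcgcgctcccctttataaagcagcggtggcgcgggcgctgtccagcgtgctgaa
Ankrd37, chr16:53001257-53001506, plus strand: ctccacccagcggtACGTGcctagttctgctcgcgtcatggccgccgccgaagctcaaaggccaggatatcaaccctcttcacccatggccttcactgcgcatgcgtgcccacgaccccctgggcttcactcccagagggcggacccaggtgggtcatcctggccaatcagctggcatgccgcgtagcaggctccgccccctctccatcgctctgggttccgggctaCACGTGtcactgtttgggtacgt
In Vgf the TGACGTCA starts 90 bases before the transcript start and the CACGTG pair 65 and 64 bases before it. Tfrc holds 1 ACGTG, 31 bases before the start, and Ankrd37 holds them at 236, 23 and 22 bases. The Vegfa window held neither set of letters. TGACGTCA was found in 1.59% of 33469 promoter windows, in 6.67% of the 60 windows of genes that rose and in 2.53% of the 79 of genes that fell. ACGTG was found in 16.57%, 35.0% and 12.66% of the same sets. The 33469 windows were not limited to the genes tested or to 1 per gene, so they are not a matched background. These shares describe letters only and were not tested, and the motifs were chosen after the changes were known.

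Genes of glycolysis and of the response to low oxygen rose together. Of 27 members tested of a list of hypoxia and glycolysis genes, 16 rose (59.26%, against 0.636% of all genes tested) and none fell. Of the 27, 25 were above 0, and the median change was 0.36 against 0.00 for all genes tested. The summed FPKM of the list was 1192 and 1197 with DMSO and 1495 and 1617 with SKF. Cells take up glucose through transporters such as Slc2a1, split it by glycolysis and, where pyruvate is not oxidised, turn it into lactate by lactate dehydrogenase and export it. Ldha, the A subunit of that dehydrogenase, read 82.5 and 84.8 FPKM with DMSO and 124 and 137 with SKF, a change of 0.64 ± 0.06 (adjusted p = 9.72e-06). Without SKF replicate 6, 7 members of the list passed, and with experiment 3 fitted alone 9 did.

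Along the pathway itself, a list of 20 enzymes and transporters was drawn up after the values were seen. Of these, 12 rose (60%, against 0.636% of all genes tested) and none fell. At entry, the glucose transporter Slc2a1 rose by 0.47 ± 0.08 and hexokinase 2 (Hk2) by 0.69 ± 0.11, although Hk2 stayed at or below 1.04 FPKM. Gpi, glucose-6-phosphate isomerase, went from 170 and 184 FPKM with DMSO to 258 and 280 with SKF (0.60 ± 0.06). Pfkl, the liver type phosphofructokinase that commits sugar to the pathway, read 12.7 and 12.2 with DMSO and 18.4 and 20.3 with SKF (0.61 ± 0.06). The steps after the sugar is split followed: Aldoa by 0.46, Tpi1 by 0.47, Pgk1 by 0.39, Pgam1 by 0.28, Eno1 by 0.42 and Pkm by 0.38. Aldoa was the most abundant, at 307 and 294 FPKM with DMSO and 394 and 436 with SKF. Tpi1 and LOC100911515 moved almost alike and may share reads. The lactate exporter Slc16a3 rose by 0.75 ± 0.14 from a level under 0.2 FPKM with DMSO. Isoforms not called that lay nearer 0 included Hk1 at 0.11, Pfkp at 0.21, Pfkm at 0.03, Aldoc at 0.01 and Eno2 at 0.19. Ldhb was at -0.02 and the lactate transporter Slc16a1 at -0.26, neither of them called. Of the 20, 15 had an unadjusted p under 0.05, 14 of them higher with SKF. Gapdh, also listed, was not matched to a gene. Ldha, Gpi, Pfkl, Aldoa, Eno1 and Pkm kept their calls without each of the 4 libraries. The others lost it in at least 1 omission, with an adjusted p of 0.07 for Hk2, 0.098 for Tpi1, 0.109 for Slc2a1, 0.192 for Slc16a3, 0.201 for Pgk1 and 0.365 for Pgam1, each without SKF replicate 6.

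**Figure D3:**
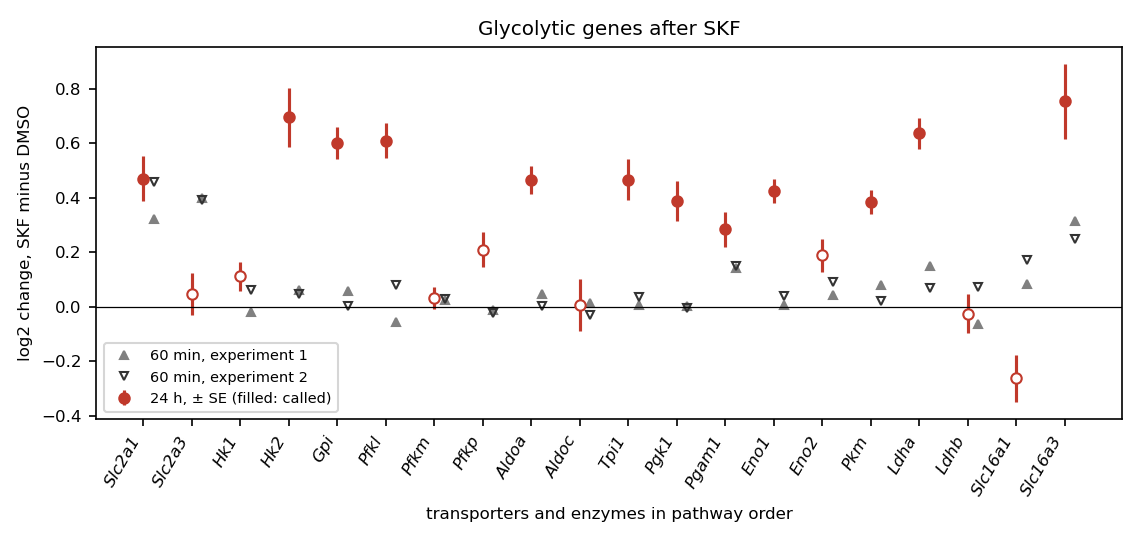
Log2 change with SKF for 20 glycolytic enzymes and transporters in pathway order, at 24 h (circles with SE, filled where called) and at 60 min in experiments 1 and 2 (triangles). The 12 filled circles lie between 0.28 and 0.75, and the triangles of Slc2a1 lie at 0.32 and 0.46.

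Some members of the low-oxygen response outside glycolysis also rose. Pdk1, which holds back pyruvate oxidation, rose by 0.33 ± 0.08, the mitochondrial autophagy receptor Bnip3 by 0.30 ± 0.05 and the collagen hydroxylase subunit P4ha1 by 0.38 ± 0.08. The oxygen-sensing hydroxylase Egln1 read 13.7 and 11.7 FPKM with DMSO and 16.0 and 16.7 with SKF but missed the threshold (adjusted p = 0.0694). Adm, Ndrg1 and Egln3, which are also known to respond to low oxygen, were at 0.02, 0.00 and -0.11. Outside the list, and named after their values were seen, the histone demethylase Kdm3a rose by 0.52 ± 0.06 and Narf, which resembles iron-only hydrogenases, by 0.57 ± 0.05. The calls of Pdk1, Bnip3 and P4ha1 were lost without SKF replicate 6 (adjusted p 0.436, 0.177 and 0.3), while those of Kdm3a and Narf held in all 4 omissions.

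Genes of amino acid supply formed the next group of rises. The transcription factor Atf4 is translated when amino acids are short or unfolded proteins accumulate. Of 25 tested members of a list of its targets, 12 rose (48%, against 0.636% of all genes tested), none fell and the median was 0.24. Atf4 itself read 69.3 and 72.6 FPKM with DMSO and 87.5 and 95.7 with SKF (0.37 ± 0.05). Asns, asparagine synthetase, read 21.7 and 23.6 with DMSO and 31.3 and 33.3 with SKF (0.50 ± 0.05, adjusted p = 4.52e-05). The arginine and lysine transporter Slc7a3 had the largest change of the list, with 2.38 and 2.69 FPKM against 3.93 and 4.78 (0.68 ± 0.11). Chac1, which degrades glutathione, changed by 0.63 ± 0.12, and the mitochondrial folate enzymes Mthfd2 and Shmt2 by 0.62 ± 0.14 and 0.43 ± 0.07. Stress transcripts of the same list rose by 0.47 ± 0.11 (Ddit3), 0.40 ± 0.08 (Atf5), 0.39 ± 0.07 (Sesn2) and 0.24 ± 0.05 (Ddit4). The serine synthesis genes Phgdh, Psat1 and Psph were at 0.04, 0.18 and 0.29, and none of them was called. A list of 21 heat shock and protein folding genes had no call by limma or voom (median 0.03, with 2 at an unadjusted p under 0.05). Atf4 and Asns kept their calls in all 4 omissions, but 4 members passed without DMSO replicate 5 and 2 without SKF replicate 6. Without the latter the adjusted p was 0.105 for Slc7a3, 0.255 for Chac1, 0.41 for Mthfd2, 0.072 for Shmt2, 0.395 for Ddit3, 0.158 for Atf5, 0.13 for Sesn2 and 0.3 for Ddit4.

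Cytosolic aminoacyl-tRNA synthetases, which load amino acids onto tRNA, were collected after the values were seen. Of 20 tested, 5 rose (25%, against 0.636% of all genes tested). Those were Cars (0.34 ± 0.06), Aars (0.26 ± 0.04), Iars1 (0.25 ± 0.05), Sars1 (0.22 ± 0.05) and Eprs (0.16 ± 0.04), and 18 of the 20 were above 0. Aars is also in the Atf4 list. All 5 calls were lost without SKF replicate 6, with adjusted p of 0.101 for Cars, 0.139 for Aars, 0.144 for Iars1, 0.394 for Sars1 and 0.496 for Eprs.

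Iron uptake was represented by a few strong members rather than by the list as a whole. Of 26 tested genes of iron and haem handling, likewise listed after the values were seen, 3 rose (11.54%, against 0.636% of all genes tested). None fell. The median was 0.00, with 13 members above 0 and 13 below, the lowest at -0.625. An unadjusted p under 0.05 was reached by 8, of which 5 were higher with SKF. The rises beside Tfrc were Slc11a2, the divalent metal transporter DMT1 that moves iron out of endosomes, and Alas1, which starts haem synthesis. Slc11a2 read 16.2 and 15.5 FPKM with DMSO and 23.01 and 23.1 with SKF (0.52 ± 0.06, adjusted p = 5.41e-05), and the 2 groups lay well apart. Alas1 read 15.4 and 15.5 with DMSO and 19.0 and 19.9 with SKF (0.32 ± 0.06). The ferritin subunits Fth1 and Ftl1 were at -0.06 and 0.00, the iron exporter Slc40a1 at 0.18 and the iron regulatory protein genes Aco1 and Ireb2 at -0.05 and 0.01. Slc11a2 kept its call in all 4 omissions, and Alas1 lost it without SKF replicate 6 (adjusted p = 0.151).

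Few genes of neuronal signalling rose. Igf1, insulin-like growth factor 1, read 8.40 and 8.33 FPKM with DMSO and 12.3 and 11.1 with SKF (0.46 ± 0.08). The clock genes Per2 and Dbp rose by 0.41 ± 0.09 and 0.35 ± 0.09, 2 of 19 members of their list. H1f2 and H1f4, which encode linker histones, rose by 0.41 ± 0.07 and 0.49 ± 0.10, 2 of 42 histone genes tested. The calcium-activated potassium channel gene Kcnn1 rose by 0.39 ± 0.09. Mif, a cytokine with tautomerase activity named after its values were seen, rose by 0.52 ± 0.05, but LOC103694877 has the same values and the 2 may share reads. Of these calls only that of Mif held without each of the 4 libraries. The largest adjusted p was 0.071 for Igf1 without SKF replicate 5, 0.253 for Per2 and 0.488 for Dbp without DMSO replicate 5, and 0.101 for H1f2, 0.263 for H1f4 and 0.213 for Kcnn1 without SKF replicate 6.

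Among the falls, markers of microglia and related myeloid cells were lower as a group. Microglia are the resident immune cells of the brain and are known by receptors such as Cx3cr1, Csf1r and P2ry12 and by the complement component C1q. Of 19 markers 12 fell (63.16%, against 0.857% of all genes tested) and none rose. All 19 were below 0 and the median was -0.84. Their summed FPKM was 131 and 110 in the DMSO libraries and 67.0 and 49.5 in the SKF libraries. In bulk RNA, fewer cells of a type and less RNA per cell cannot be told apart. Cx3cr1, the fractalkine receptor, read 3.50 and 2.97 FPKM with DMSO and 0.858 and 0.700 with SKF, a change of -1.55 ± 0.14 (adjusted p = 9.72e-06). The abundant lysosomal marker Cd68 read 23.4 and 20.9 with DMSO and 12.6 and 9.37 with SKF (-0.99 ± 0.15). Trem2, a lipid-sensing receptor, read 2.93 and 2.15 with DMSO and 1.26 and 0.749 with SKF (-1.03 ± 0.16), and its adaptor Tyrobp changed by -0.97 ± 0.15. C1qa, at 22.2 and 18.8 FPKM with DMSO and 11.5 and 8.33 with SKF, missed the threshold (adjusted p = 0.0788) although its groups did not overlap, as did the lineage factor Spi1 (-0.54) and Tmem119 (-0.31). With voom 11 of the 19 markers were called, C1qa among them. SKF replicate 6 lay below replicate 5 for Cx3cr1, Cd68, Trem2 and C1qa. Without SKF replicate 6 or without DMSO replicate 5, 3 markers passed. Cx3cr1 and Cd68 passed in all 4 omissions, while the adjusted p without SKF replicate 6 was 0.07 for Trem2 and 0.0545 for Tyrobp.

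Of the 15 largest falls, 4 are in that list: Cx3cr1, Aif1, Trem2 and Ctss. Fcgr3a, a low-affinity receptor for immunoglobulin G, came first, with 2.38 and 1.98 FPKM in the DMSO libraries and 0.253 and 0.248 in the SKF libraries (-1.83 ± 0.13, 95% interval -2.12 to -1.55, adjusted p = 6.76e-07). It lies at chromosome 13, 89385859 to 89396051 on the plus strand of Rnor_6.0. Both SKF libraries lay far below both DMSO libraries. Fcer1g, the signalling chain shared by Fc receptors, read 26.3 and 25.4 with DMSO and 13.3 and 10.8 with SKF (-1.08 ± 0.12). Adgre1, which encodes the macrophage antigen F4/80, read 5.71 and 4.66 against 2.37 and 1.71 (-1.17 ± 0.16). Cd4, carried by rat macrophages as well as T cells, read 5.78 and 5.15 against 2.52 and 2.30 (-1.03 ± 0.14). The others were Evi2b (-1.30), Aif1 (-1.20), Pld4 (-1.19), Clec4a1 (-1.18), Folr2 (-1.17), Fcrl2 (-1.12), Rac2 (-1.07), Pik3cg (-1.06), Trem2 (-1.03) and Ctss (-0.999). Ctss encodes the protease cathepsin S, Aif1 the microglial marker Iba1 and Rac2 and Pik3cg signalling proteins of blood cells. Of the 15, 10 kept their calls in all 31 alternatives and in all 4 omissions. The exceptions, with their adjusted p without SKF replicate 6, were Aif1 (0.317), Folr2 (0.085), Fcrl2 (0.145), Trem2 (0.07) and Ctss (0.098).

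**Figure D4:**
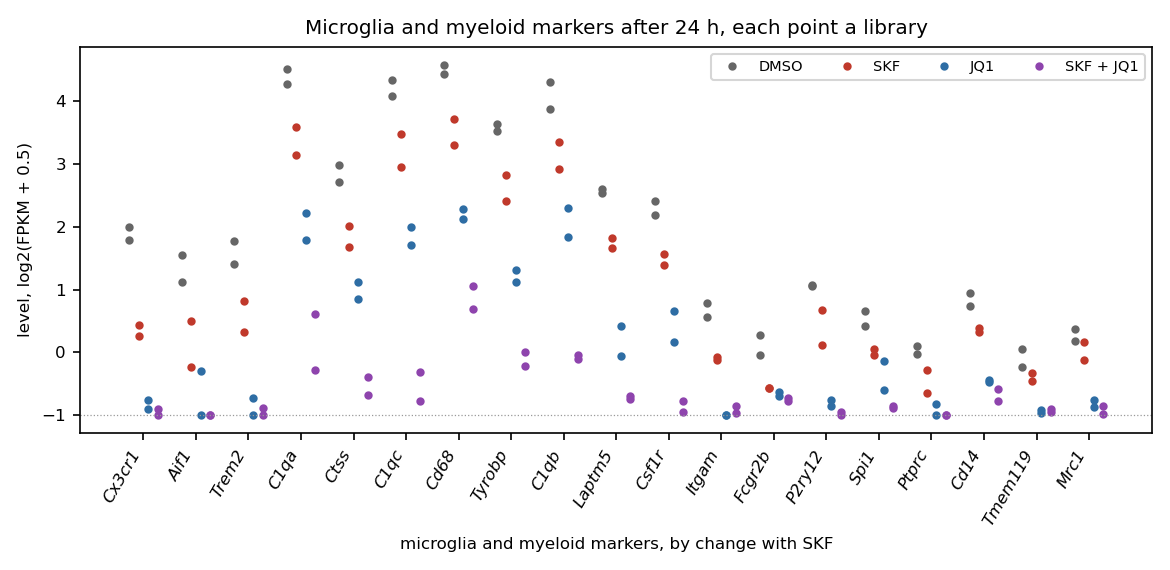
Level, as log2(FPKM + 0.5), of 19 microglia and myeloid markers in the 8 libraries of the 24 h experiment, each point a library; the dotted line is the value of a gene at 0. For every marker both SKF libraries lie below both DMSO libraries, and the 4 JQ1-treated libraries lie below both SKF libraries for all 19.

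Markers of other non-neuronal cells lay mostly below 0 without passing the test. None of 17 astrocyte markers was called by limma or voom (2 had an unadjusted p under 0.05), 15 were below 0 and the median was -0.19; their summed FPKM was 854 and 738 with DMSO and 727 and 686 with SKF. Glul, glutamine synthetase of astrocytes, read 161 and 134 FPKM with DMSO and 127 and 121 with SKF (adjusted p = 0.442). Of 18 matrix and fibroblast genes 17 were below 0 (median -0.13, 0 called by either tool, 2 at an unadjusted p under 0.05), and Sparc, an abundant matrix protein gene, was at -0.24 (adjusted p = 0.534). Oligodendrocyte lineage markers had a median of -0.08 over 14 genes with 0 calls by either tool, and of the endothelial and mural list only Acta2 and Tagln, both smooth muscle genes, could be tested (-0.85 and -0.33, neither called). The part of these marker levels in the falls was not tested.

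Outside the microglial list, 3 genes of sugar metabolism and sialic acid chemistry are described here. Txnip, a glucose-responsive gene whose protein restrains glucose uptake and thioredoxin, read 35.4 and 34.6 FPKM with DMSO and 22.7 and 18.6 with SKF (-0.75 ± 0.13). Its relative Arrdc4 read 10.3 and 10.96 with DMSO and 7.67 and 6.29 with SKF (-0.58 ± 0.07, adjusted p = 2.75e-04). Arrdc3, of the same arrestin family, was at -0.18 with overlapping libraries. Casd1, a sialic acid acetyltransferase named after its values were seen, read 20.1 and 21.9 with DMSO and 14.1 and 13.6 with SKF (-0.58 ± 0.06). Casd1 and Arrdc4 held in all 4 omissions, and Txnip lost its call without SKF replicate 6 (adjusted p = 0.145).

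Neuronal genes among the falls had small changes. The substance P receptor gene Tacr1 went from 4.92 and 4.71 FPKM to 3.46 and 2.88 (-0.54 ± 0.13), and Nos1, nitric oxide synthase of a class of striatal interneurons, from 16.8 and 16.2 to 12.9 and 13.8 (-0.30 ± 0.05). Both are expressed by striatal interneurons, whose list had 1 call in 16 (Nos1) and a median of -0.09. Gabrg1, a GABA-A receptor subunit, changed by -0.36 ± 0.08, the NMDA receptor subunit Grin3a by -0.26 ± 0.06 and the potassium channel partner Kcnip1 by -0.21 ± 0.05. Nxph1, a neurexin ligand, read 93.7 and 96.3 FPKM with DMSO and 81.5 and 78.2 with SKF (-0.25 ± 0.05). None of these 6 calls held in every omission: the largest adjusted p was 0.487 for Tacr1, 0.394 for Grin3a, 0.555 for Kcnip1 and 0.249 for Nxph1 without SKF replicate 6, 0.106 for Nos1 without SKF replicate 5, and 0.303 for Gabrg1 without DMSO replicate 5.

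The D1 pathway and the markers of its cells gave no call at 24 h. None of 39 genes of D1 signalling passed in limma (4 had an unadjusted p under 0.05, and voom called 0), from the receptor through G proteins, adenylyl cyclases and protein kinase A to phosphodiesterases, and their changes ran from -0.18 to 0.27 with a median of 0.00. Drd1 read 12.98 and 13.9 FPKM with DMSO and 12.9 and 12.9 with SKF. Its change was -0.05 ± 0.09 (adjusted p = 0.934). None of 14 D1 neuron markers and none of 12 D2 neuron markers tested was called, with medians of -0.04 and -0.07; 2 and 1 had an unadjusted p under 0.05, and voom again called 0. Of the peptide genes of the direct pathway, Pdyn, prodynorphin, was at -0.17 ± 0.08 and Tac1, the substance P precursor, at -0.04 ± 0.15. Penk, proenkephalin of the indirect pathway, read 98.4 and 125 FPKM with DMSO and 127 and 130.4 with SKF (0.21 ± 0.19, adjusted p = 0.818). A p that misses the threshold does not show that these genes did not change.

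In the synaptic lists, of 48 glutamate receptor and synapse genes 1 fell (Grin3a), of 21 GABA genes 1 fell (Gabrg1), and of 75 voltage-gated channel genes 1 rose and 2 fell. The AMPA receptor subunit Gria1 had the next smallest p among glutamate genes, at -0.16 ± 0.04 (adjusted p = 0.102), and voom called it (adjusted p = 0.0458), which made 2 falls in that list. None of 29 cholesterol and fatty acid synthesis genes was called by limma or voom although 28 were above 0 (median 0.15) and 6 had an unadjusted p under 0.05, Cyp51 among them at 0.26 ± 0.09. MAP kinase phosphatases and ERK feedback genes had 0 calls in 23 by either tool, with 9 at an unadjusted p under 0.05, and Dusp5, a nuclear ERK phosphatase, came closest at 0.39 ± 0.10 (adjusted p = 0.0547). None of 90 ribosomal protein genes and none of 13 mitochondrially encoded genes was called by limma or voom, with 6 and 0 at an unadjusted p under 0.05. Of 20 neurotrophin and receptor genes Igf1 rose and the sorting receptor gene Sorcs1 fell by 0.18 on the log2 scale, a call lost in all 4 omissions (adjusted p up to 0.41). The interferon list had no call in 12 genes by limma or voom (1 had an unadjusted p under 0.05), and the inflammatory list 1 in 17, the complement gene C3 (-0.74 ± 0.14), whose call was lost without SKF replicate 6 (adjusted p = 0.157).

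Immediate early genes, which SKF induces at 60 min, had a median change of 0.07 at 24 h, against 1.40 and 1.59 at 60 min in experiments 1 and 2. Of 34 such genes 1 rose at 24 h, Nr4a3. An unadjusted p under 0.05 was reached by 11 of the 34, 8 of them higher with SKF, and by 1366 of all 13997 genes. In the test of the 24 h effect minus the mean 60 min effect, 343 genes differed (2.45% of those tested), 274 of them lower at 24 h (1.96%) and 69 higher (0.493%). Of the immediate early genes 30 of 34 were lower at 24 h. Nr4a2, a nuclear receptor, read 1.09 and 1.004 FPKM with DMSO and 1.15 and 1.09 with SKF at 24 h. At 60 min it read 5.40 and 4.71 with DMSO and 31.0 and 38.3 with SKF in experiment 1, and the difference of effects was -2.91 ± 0.13 (adjusted p = 3.5e-10). Fos, the classical member, read 5.72 and 5.07 with DMSO and 6.63 and 6.34 with SKF at 24 h, a change of 0.25 ± 0.17 against 2.03 and 2.20 at 60 min. Its levels with DMSO differed as well, with means of 42.49 and 54.72 FPKM in the 60 min experiments and 5.395 at 24 h. The DMSO means of Nr4a1 were 28.3 and 46.94 against 2.074, while those of the transcription factor gene Jun were 17.75 and 12.25 against 16.91. Arc, Egr1, Fosb and Npas4 were at 0.17, 0.22, 0.36 and 0.36 at 24 h, none of them called. Among those not called Nr4a1 had the highest value, at 0.65 ± 0.25, with 2.25 and 1.90 FPKM against 4.22 and 2.96 (adjusted p = 0.357). Time and experiment changed together, so they cannot be told apart. Without SKF replicate 6, 189 genes differed between times, 162 lower and 27 higher at 24 h, and with voom 362 differed, 232 lower and 130 higher.

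**Figure D5:**
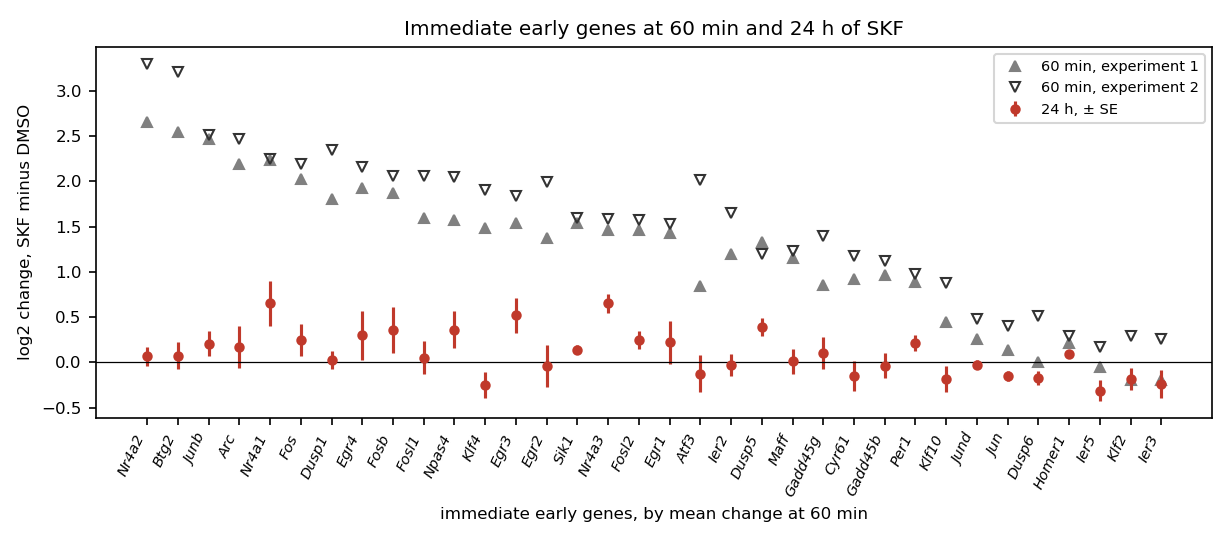
Log2 change with SKF of 34 immediate early genes, ordered by their mean change at 60 min: triangles are 60 min in experiments 1 and 2, red circles 24 h with SE. Triangles start at 2.66 and 3.30 for Nr4a2, while the circles lie between -0.31 and 0.65.

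Of 190 genes that rose at 60 min in both experiments, 3 rose at 24 h, namely Vgf, AABR07051069.1 and Nr4a3, and none fell. Over all genes tested, 0.636% rose and 0.857% fell at 24 h. As said above, Vgf and AABR07051069.1 may share reads. The background of rises at 60 min was 1.58% of genes in experiment 1 and 2.02% in experiment 2. The median change of the 190 was 0.57 and 0.61 at 60 min and 0.05 at 24 h, and 150 were lower at 24 h by the test of the difference. That test uses the same 60 min values by which the 190 were chosen, so its count is in part fixed by the choice. Vgf went from 8.51 and 8.59 FPKM to 26.5 and 31.5 in experiment 1 and from 30.7 and 26.9 to 63.1 and 59.7 in experiment 2, and the difference between times had an adjusted p of 0.773. Nr4a3 rose at both times but by less at 24 h (0.65 against 1.46 and 1.58, adjusted p = 6.4e-04 for the difference). Among the 120 falls, Txnip was the one that also fell in both 60 min experiments (-0.75, with -0.80 and -0.97 at 60 min), though its 24 h call was lost without SKF replicate 6 (adjusted p = 0.145).

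Of the 89 genes that rose at 24 h, 5 rose at 60 min in experiment 1 and 5 in experiment 2 (5.618% each). The shares over all genes tested were 1.579% and 2.022%. Only 3 of the 89 rose in both experiments, and 1 fell in experiment 2. At 60 min Vegfa was at 0.26 and 0.07 and Tfrc at 0.17 and 0.09 in experiments 1 and 2, and both effects were larger at 24 h (adjusted p = 1.19e-06 and 5.08e-06). The same held for 10 of the 27 hypoxia and glycolysis genes and 4 of the 25 Atf4 genes, against 0.493% of all genes tested. None of either list was lower at 24 h. Slc2a1 was at 0.32 at 60 min in experiment 1 (adjusted p = 0.0694) and rose by 0.46 in experiment 2 (adjusted p = 0.00341). Of the 120 falls, 74 differed from 60 min, against 2.45% of all genes tested. Of the 19 microglia markers 12 were lower at 24 h, against 1.96% of all genes. The difference contains the 24 h change by which the falls, Vegfa and Tfrc were chosen. Their results in that test are therefore in part fixed by the choice. Cx3cr1 was at -0.36 and -0.04 at 60 min, when its DMSO libraries read 2.996 and 2.77 FPKM in experiment 1 and 1.83 and 1.11 in experiment 2.

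The SKF effect in cultures that also received JQ1 for 24 h comes from 4 other libraries. Of the 89 rises 84 were also above 0 there (94.38%, against 48.4% of all genes) and 31 rose (34.83%, against a background of 0.336%). Of the 120 falls 111 were below 0 (92.5%, against 51.42% of all genes) and 34 fell (28.33%, against 0.786%). Vegfa read 5.56 and 4.85 FPKM with JQ1 and 12 and 10.8 with SKF plus JQ1 (1.06 ± 0.08). Tfrc read 39.8 and 31.8 with JQ1 and 121 and 121 with both (1.75 ± 0.09). Ldha, Aldoa, Eno1 and Slc11a2 changed by 0.61, 0.51, 0.46 and 0.56 in the presence of JQ1, each called. The hypoxia and glycolysis list had a median of 0.26 there and the Atf4 list of 0.14. Asns, whose level with JQ1 alone (30.4 and 30.7 FPKM) was near that with SKF alone, was at 0.14 in its presence and was not called.

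Whether JQ1 altered the response to SKF was tested as a difference of effects, which was called for 6 genes (0.0429%), and in 5 of them at least 1 group was at or near 0. Fcgr3a, Cx3cr1 and Clec4a1 fell with SKF alone and read at most 0.0948 FPKM in every JQ1-treated library of the experiment. Their differences were 1.78 ± 0.19, 1.42 ± 0.20 and 1.16 ± 0.20. With voom none of the 3 was called: Fcgr3a was at 2.99 (adjusted p = 0.605), Cx3cr1 at 0.49 (adjusted p = 0.994) and Clec4a1 at 0.96 (adjusted p = 0.98). The calls of Cx3cr1 and Clec4a1 were also lost with a pseudocount of 0.1 (adjusted p 0.158 and 0.37) and with experiment 3 alone (0.131 and 0.63), and that of Clec4a1 with no filter (0.0637) and with the replicate number as a block (0.14). Igf1 is the exception, with levels well above 0 in all groups. It rose with SKF alone, read 4.09 and 4.57 FPKM with JQ1 and 3.42 and 3.40 with both, and the difference was -0.76 ± 0.11 (adjusted p = 0.0118). That call was lost in 6 of the 8 omissions within experiment 3, with adjusted p of 0.0531 and 0.0554 without DMSO replicate 5 or 6, 0.112 without JQ1 replicate 6, 0.0898 without SKF replicate 5, and 0.0699 and 0.0533 without SKF plus JQ1 replicate 5 or 6. It was also lost with voom (0.0948) and with experiment 3 alone (0.183). The adjusted p of Cx3cr1 was 0.0531 without DMSO replicate 5, 0.058 without SKF replicate 6 and 0.051 without SKF plus JQ1 replicate 6, and Clec4a1 (adjusted p = 0.0496) passed in none of the 8 omissions within experiment 3, where its adjusted p ran up to 0.295. More abundant markers fell in both settings: Fcer1g changed by -1.08 with SKF alone and -1.91 in the presence of JQ1, and Cd68 by -0.99 and -1.33. The summed FPKM of the 19 microglia and myeloid markers was 23.3 and 17.6 with JQ1 and 4.83 and 2.91 with SKF plus JQ1. Vegfa, Tfrc and Ldha gave adjusted p of 0.857, 0.351 and 0.997 for the difference, which does not show that JQ1 left them alone.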

How the data were processed

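RNA of 23 libraries was analysed; the second SKF plus iBD2 library is not analysed here. RNA was depleted of ribosomal RNA and made into stranded libraries, per the labels' protocols. Reads were trimmed and mapped to build Rnor_6.0, with Trim Galore, FastQC, STAR, StringTie and DESeq2 named without versions, per the submitters' processing notes. Each deposited file is a transcript table with FPKM and coverage (signal, the mean read depth over a transcript) as the authors computed them. The strand setting of the quantification was not given in the sources used here, which leaves antisense and overlapping genes uncertain.

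FPKM were summed by gene, divided by a median-ratio size factor (0.947 to 1.07) and taken as log2(FPKM + 0.5). Kept were genes that reached 0.5 FPKM in 2 or more libraries and had a transcript of 200 nucleotides or longer. A limma 3.58.1 model (R 4.3.3, trend and robust) with a mean for each of 12 groups used all 23 libraries and left 11 residual degrees of freedom, and its p-values were two-sided and Benjamini-Hochberg adjusted over all 13997 genes with a threshold of 0.05. The single SKF plus iBD2 library was taken to vary as other groups do. Estimated reads for an alternative fit came from coverage times length over 202 bases, the commonest such product and the length of a read pair. The fit was tested on simulated data. FPKM are not counts, and depth was taken from coverage. Of 964 listed symbols 945 matched.

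Named by rule were the 15 largest rises and 15 largest falls among calls with a symbol, a mean of at least 1 FPKM in the higher group and no overlap, up to 4 members of each list by p, the 8 most significant of each difference of effects, and a fixed set of striatal and activity genes. Further list members were named with their values known. The members and lists were chosen with earlier results of these data known. Promoters came from RefSeq (GRCr8), with entries for 10 of the 15 largest rises. Alternative settings were unscaled FPKM, a pseudocount of 0.1 or 1, no filter, the replicate number as a block, experiment 3 alone, the 4 libraries alone, voom, and each library left out. A single gene's result is not reported here, though the counts include it.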

Additional observations from a re-analysis of the deposited data

Results flagged for a closer look

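Differences between SKF effects were tested directly. Between 24 h and 60 min 343 genes differed. Those with the smallest p were all lower at 24 h, with differences given on the log2 scale. Nr4a2 differed by -2.91, Btg2, an antiproliferative early gene, by -2.80, Tiparp, an ADP-ribosylating enzyme, by -2.32 and the phosphatase gene Dusp1 by -2.05. The splicing factor gene Cwc25 differed by -1.57 and the cyclic AMP response modulator gene Crem by -1.52. The values were -1.43 for the kinase gene Sik1 and -0.85 for the endosomal sorting gene Vps37b. At 24 h each of these 8 changed by less than 0.15 in either direction. Time and experiment cannot be told apart.

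Between cultures with and without JQ1, 6 genes differed in their SKF effect. Fcgr3a (1.78), Cx3cr1 (1.42) and Clec4a1 (1.16) had fallen with SKF alone and read near 0 with JQ1, and Igf1 (-0.76) rose with SKF alone and was lower with SKF plus JQ1 than with JQ1. Ltc4s and AABR07017159.1 complete the 6. At 24 h each reached the filter's 0.5 FPKM only in the group where it was high, so its call may in part be fixed by that filter.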

How the results depend on the processing

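No named gene with a call, in the reported fit or in the alternative, reversed its direction. List medians near 0 could change sign with unscaled FPKM or with 1 of the 4 libraries left out. That of the GABA genes ran from -0.07 to 0.10 and that of the D2 neuron markers from -0.10 to 0.04. The difference between SKF effects with and without JQ1 had 4 genes higher and 2 lower as reported. With a pseudocount of 0.1 it had 2 higher and 5 lower. The 209 calls became 87 with experiment 3 fitted alone and 90 with the 4 libraries alone; those fits have fewer libraries from which to estimate the spread. Leaving out 1 library gave 63 to 230 calls. Other settings gave 181 to 276, the last with voom, of which 193 were shared with the 209. Of the 209, 45 passed in all 31 alternatives and 53 without each of the 4 libraries in turn. The difference from 60 min ran from 189 to 356 calls over omissions. The difference between SKF effects with and without JQ1 called 19 genes with no filter, 1 with experiment 3 alone, 0 with limma's voom (802 at an unadjusted p under 0.05, against 801 in the reported fit), and 3 to 8 over omissions; the cause was not tested. With experiment 3 alone and with the 4 libraries alone, the hypoxia and glycolysis list had 9 and 9 rises, the Atf4 list 5 and 5, and the microglia list 6 and 7 falls. Omissions gave 7 to 16, 2 to 13 and 3 to 13, and the immediate early genes lower at 24 h numbered 22 to 30.

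The groups share replicate numbers 5 and 6, but the labels do not say that a number marks a shared culture. With the replicate number as a block 221 genes were called, 89 higher and 132 lower. The difference between SKF effects with and without JQ1 then called 6 genes, 2 higher and 4 lower with JQ1, against 4 and 2 without the block, and 4 genes were shared. Deviations of same-numbered libraries from their group means correlated at -0.23 for DMSO and SKF, 0.132 for DMSO and JQ1, -0.097 for DMSO and SKF plus JQ1, 0.064 for SKF and JQ1, 0.371 for SKF and SKF plus JQ1 and 0.221 for JQ1 and SKF plus JQ1. With 2 numbers and no label for a shared culture, the pairing was not used.

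With 2 libraries a group, the spread rests on 11 residual degrees of freedom shared over 12 groups. Of the gene-level results under the alternatives, 5477 kept their side of the threshold, 249 lost a call and 20 gained one. Changes of genes under about 1 FPKM depend on the pseudocount.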

Other observations

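Of the 89 rises 4, and of the 120 falls 19, lay below the mean of 1 FPKM required of the largest rises and falls. From these, 2 are described here, chosen after their values were seen. AABR07017159.1 was listed at 0 in both DMSO libraries and read 0.585 and 0.841 FPKM in the SKF libraries, and it was listed at 0 in all JQ1-treated libraries at 24 h. Ltc4s, leukotriene C4 synthase, read 0.957 and 0.961 FPKM with DMSO and 0 and 0.139 with SKF, and was listed at 0 in the 4 JQ1-treated libraries. At 24 h AABR07017159.1 reached the filter's 0.5 FPKM only with SKF alone, and Ltc4s only with DMSO. Their calls may therefore in part be fixed by that filter. Also named after their values were seen are a pair of genes that fell. The lysosomal protease gene Ctsb read 166 and 149.8 FPKM with DMSO and 127 and 117 with SKF, and Gpx3, a secreted glutathione peroxidase, read 14.3 and 12.7 with DMSO and 7.48 and 7.27 with SKF.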
